A study of Mus musculus with 5 samples.

Results

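The nuclear receptor TLX was called at 1176 shared sites in mouse neural stem cells (NSC) and in mouse brain tumour stem cells (BTSC). A shared site is a TLX peak of the NSC list that overlapped a TLX peak of the BTSC list by at least 1 bp, so the members were chosen by the positions of the calls in both lists. They made up 1176 of the 7458 NSC peaks, a background share of 15.8% (95% interval 14.9 to 16.6), and met 1174 of the 1436 BTSC peaks. The remaining 6282 NSC peaks are called NSC-only here and the remaining 262 BTSC peaks BTSC-only. In either culture the cells used for TLX carried a retrovirus that encodes TLX with a 3xTY1 tag, were selected with G-481 as the labels spell it, and were precipitated with an antibody against TY1. The labels describe this transduction for primary neural stem cells and give no mutation, strain or line for BTSC. Acetylation of lysine 27 of histone H3 (H3K27ac) was profiled in NSC and BTSC that were not transduced. A sample without antibody came from cells with the empty vector MSCV-neo, its cell type is not stated, and its data were not used here. Each group was 1 library, so no value has replicate error, no groups were tested against each other, and intervals are exact Clopper-Pearson intervals for counting error only. The tagged TLX was expressed from the retrovirus, and without a TY1 precipitation from untagged cells, binding of the antibody to anything else cannot be told apart from binding to TLX.

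TLX, encoded by Nr2e1, is an orphan nuclear receptor of the forebrain that keeps adult neural stem cells dividing and undifferentiated. It binds DNA through a short recognition hexamer and is best known as a repressor that recruits corepressors and histone deacetylases, while gene activation has also been described. H3K27ac marks active promoters and enhancers.

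Some strong shared sites in promoters lay beside the letters AAGTCA, the hexamer that TLX is known to recognise, and others did not. A match was found at 29 of the 130 shared sites whose summit lay in a promoter. The sites at Ccdc57 and Zdhhc6, each with an NSC fold of 17.2, had 0 matches. The 4 promoter stretches printed here were chosen because they combine a high rank in either list with such a match, and capitals mark AAGTCA or its reverse complement TGACTT. They were taken from RefSeq, build GRCm38.p6, are given 5′ to 3′ on the strand of the gene, and end at or before the base ahead of the start site. Psmf1 encodes an inhibitor of the proteasome, Ccnk encodes cyclin K, a partner of transcriptional kinases, and Rbms2 encodes an RNA-binding protein. The stretches lie on chr2:151741311-151741394 (minus strand), chr4:129461593-129461678 (plus strand), chr12:108179622-108179737 (plus strand) and chr10:128176612-128176737 (minus strand).
Psmf1: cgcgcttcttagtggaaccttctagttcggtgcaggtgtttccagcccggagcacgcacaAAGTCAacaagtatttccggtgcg
Bsdc1: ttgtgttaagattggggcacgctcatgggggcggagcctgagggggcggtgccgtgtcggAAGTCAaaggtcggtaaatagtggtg
Ccnk: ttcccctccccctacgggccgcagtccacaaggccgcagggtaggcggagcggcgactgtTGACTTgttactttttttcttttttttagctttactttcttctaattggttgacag
Rbms2: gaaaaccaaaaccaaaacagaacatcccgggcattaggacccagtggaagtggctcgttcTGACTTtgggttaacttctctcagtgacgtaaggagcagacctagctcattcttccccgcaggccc

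At Psmf1, whose site led the NSC list with a fold of 72.3 and stood at rank 2 in BTSC with a fold of 52.6, the summit lay 33 bp before the start and 11.5 bp from the middle of the match. The Bsdc1 site had folds of 14.9 in NSC and 10.5 in BTSC, and its summit lay 0.5 bp from the middle of the match. At Ccnk, with folds of 14.5 and 11.7, a second match, outside the printed stretch, stood 12.5 bp from the summit. That summit lay 20 bp after the start. The Rbms2 site had folds of 12.05 and 10.8, with the match 21.5 bp from the summit. All 4 sites carried H3K27ac in both cultures.

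Shared sites lay within 75 kb of all 3 genes of the microRNA miR-9. This window is wider than the 10 kb used for the gene lists. miR-9 is abundant in neural progenitors and is known to repress the TLX mRNA, while TLX is reported to repress miR-9 genes. Its mature form is the same from all 3 genes, Mir9-1 on chromosome 3, Mir9-2 on chromosome 13 and Mir9-3 on chromosome 7, and is printed from RefSeq with the seed (bases 2 to 8) in capitals.
mmu-miR-9-5p: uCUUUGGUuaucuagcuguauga

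Within 75 kb of Mir9-1 lay 3 shared sites, 5896, 10079 and 15774 bp away, with NSC folds of 7.08, 6.88 and 10.5 and BTSC folds of 5.04, 4.81 and 6.64. All 3 stood on the same H3K27ac region, 52772 bp wide in NSC and 53065 bp wide in BTSC. Near Mir9-2, a site 988 bp away had folds of 4.78 in NSC and 3.80 in BTSC, and a site 2806 bp away had folds of 8.41 and 5.72. Both lay on the same H3K27ac region, which spanned 32230 bp in NSC and 38175 bp in BTSC. Mir9-3 had 4 shared sites within 75 kb, the nearest 13482 bp and the farthest 67070 bp away. That farthest site had the highest folds of the 9 sites, 17.0 in NSC and 13.3 in BTSC. All 9 sites thus carried H3K27ac in both cultures. Of the 13 neural and let-7 microRNA genes of a list, Mir9-1 and Mir9-2 had a shared site within 10 kb (15.4%, 1.92 to 45.4), and Mir9-3 did not. Over protein-coding genes that share was 4.31%, and no share was counted for 75 kb.

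The calls of the lists met closely at most shared sites. The overlap had a median of 509 bp and ranged from 85 to 1809 bp. The summits lay a median of 75 bp apart, and 726 of 1176 pairs of summits (61.7%, 58.9 to 64.5) were within 100 bp. The BTSC peak lay wholly inside the NSC peak at 688 sites. At the edge of the rule, the smallest overlaps included 85 bp inside Opcml and 161 bp near Lpcat1. Just outside it, gaps of 13 bp near Tmem11, 254 bp near Arl4c and 381 bp near Zfp646 kept NSC peaks with folds of 3.82, 3.51 and 4.78 out of the shared set. In all, 34 NSC-only peaks came within 1000 bp of a BTSC peak.

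Peak strength chose the members in part and is therefore given as description. Fold is the authors' enrichment over the background of their peak caller, and q is the p-value the caller adjusted over the list. Folds of the shared sites ran from 1.22 to 72.3 in NSC with a median of 6.74, against 4.63 for NSC-only peaks. In BTSC the same sites had a median fold of 5.33, against 4.75 for BTSC-only peaks. Shared sites were also wider than NSC-only peaks, with a median of 777 against 583.5 bp. The 1176 strongest NSC-only peaks by q had a median width of 690 bp and a median NSC fold of 6.88. Wider peaks cover more sequence, and the part of width in the overlap was not tested. At 897 of the 1176 sites (76.3%) the NSC fold was the higher, and 43 sites had a fold of at least 10 in both lists. Folds depend on each library's background and the depth is unknown, so the count of 897 does not compare binding between cultures. Across the 1176 sites Spearman's rho between the folds was 0.54, and without chromosome 1 it was 0.55 over 981 sites; sites share libraries and are not independent. NSC folds were under 2 at 6 sites. Of these, 3 lay 102303 to 106012 bp from Esp38 on chromosome 17, and 2 lay 310755 and 334671 bp from Alkbh8 on chromosome 9. The other was more than 1 Mb from Lrrc4c on chromosome 2. By q the Lrrc4c site stood at rank 3 of the NSC list and the Alkbh8 sites at ranks 12 and 150, while the Esp38 sites stood at ranks 1068, 1313 and 7078. The Esp38 sites all met the same BTSC peak, at rank 17 of its list with a fold of 2.11.

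**Figure D1:**
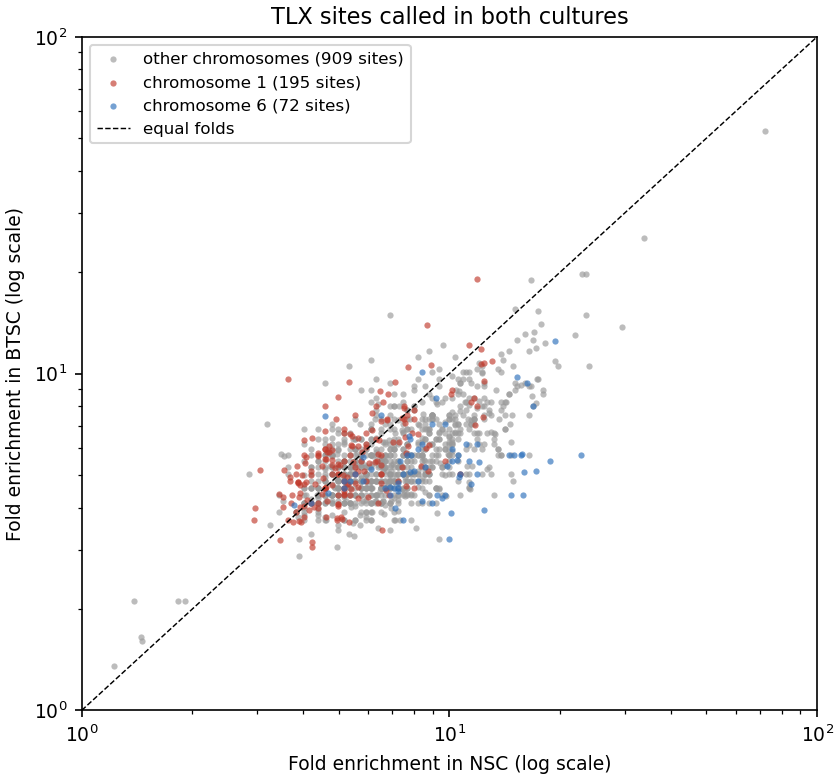
Fold enrichment of each of the 1176 shared sites in NSC (horizontal, log scale) against BTSC (vertical, log scale), with 1 point per site; the dashed line marks equal folds. Sites on chromosome 1 (195) lie nearer to or above the line, with median folds of 5.17 in NSC and 5.32 in BTSC, and most sites on chromosome 6 (72 in all) lie below it, with medians of 8.99 and 5.13.

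Among the sites ranked 11 to 30 by the sum of their ranks by q, NSC folds ran from 11.9 to 23.9 and BTSC folds from 9.51 to 19.1, and the summits of the lists were at most 110 bp apart. Inside genes stood 9 of them, 9 stood between genes and 2 lay at a gene end. The highest was inside Itgb5, which encodes an integrin subunit, at chromosome 16, 33941130 to 33941940, with folds of 17.4 in NSC and 15.3 in BTSC. A site 8791 bp from Bahcc1 had folds of 16.64 and 18.999. Inside Tns3, which encodes a tensin of focal adhesions, the folds were 16.02 and 13.12. Ets1, a transcription factor gene, held a site with folds of 16.8 and 12.6, and Kcnma1, a potassium channel gene, a site with 16.4 and 11.7. Inside Mrps28, a gene of the mitochondrial ribosome, the NSC fold of 23.9 stood against 10.5 in BTSC. The fold was the higher in BTSC at 3 of the 20 sites, those near Bahcc1, Tenm4 and Atp6v1g3. Tenm4, a teneurin gene of cell adhesion, lay 244669 bp from its site, which had folds of 15.1 and 15.6. Atp6v1g3, a proton pump gene on chromosome 1, lay 36901 bp from a site with folds of 11.9 and 19.1.

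The order of the sites differed by chromosome. Chromosome 1 held 195 shared sites, which were 42.3% (37.7 to 47.0) of the NSC peaks on it, while 9.36% (7.40 to 11.6) of the NSC peaks on chromosome 6 and 14.6% (13.7 to 15.5) of those elsewhere were shared. The BTSC list had 20.7% of its peaks on chromosome 1 and the NSC list 6.18%. Ranked by fold among the shared sites, 144 of 195 sites on chromosome 1 (73.8%, 67.1 to 79.9) stood higher in BTSC than in NSC. On chromosome 6, 17 of 72 did (23.6%, 14.4 to 35.1), and on the other chromosomes 427 of 909 (47.0%). The reason for these differences between chromosomes was not tested.

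The sites with the largest shift of place by fold included many on these 2 chromosomes. Of the 10 sites that stood furthest above their BTSC place in NSC, 5 were on chromosome 6. These lay 196519 bp from Adamts9, a metalloprotease gene, inside Creb5 and Atoh8, which encode transcription factors, at the start of Krcc1, and inside Creb3l2. Among the shared sites the Creb5 site was at place 39 in NSC with a fold of 15.9 and at place 992 in BTSC with a fold of 4.35. On another chromosome, a site 33227 bp from Pou3f1, a POU factor gene of neural progenitors, had folds of 13.2 in NSC and 4.35 in BTSC. Of the 10 sites with the opposite shift, 4 were on chromosome 1, inside Pik3c2b, Amer3, Ildr2 and Dnm3. The Pik3c2b site, in a gene of a lipid kinase, had folds of 3.63 in NSC and 9.61 in BTSC. Away from chromosome 1, a site inside Ahdc1 had folds of 5.33 and 10.5 and a site 69759 bp from Septin7, a cytoskeletal gene, 4.59 and 9.39.

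Gene position was not used to choose the members. Summits lay within 1 kb of either end of a protein-coding gene at 278 of 1176 shared sites (23.6%, 21.2 to 26.2), against a background of 31.7% over all NSC peaks. A further 475 (40.4%, 37.6 to 43.3; background 39.3%) lay deeper inside a gene and 423 (35.97%, 33.2 to 38.8; background 29.0%) between genes. NSC-only peaks had 33.2% at gene ends, and BTSC-only peaks had 19.5% (14.8 to 24.8). The difference of 9.6 percentage points from NSC-only peaks turned when strength was held equal. Among NSC-only peaks the gene-end share rose from 10.5% in the strongest class by q to 46.4% in the weakest. With NSC-only peaks weighted to the mix of shared sites over 10 classes of q, their gene-end share was 20.7%, which is 2.91 percentage points below the shared sites. Shared sites were higher in 5 classes and lower in 5, and the 2 weakest classes held 28 and 15 shared sites. The 1176 strongest NSC-only peaks had 17.2% (15.1 to 19.5) at gene ends. Shared sites at gene ends also had lower folds than those between genes, with medians of 5.93 and 7.42 in NSC and 4.93 and 5.64 in BTSC.

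**Figure D2:**
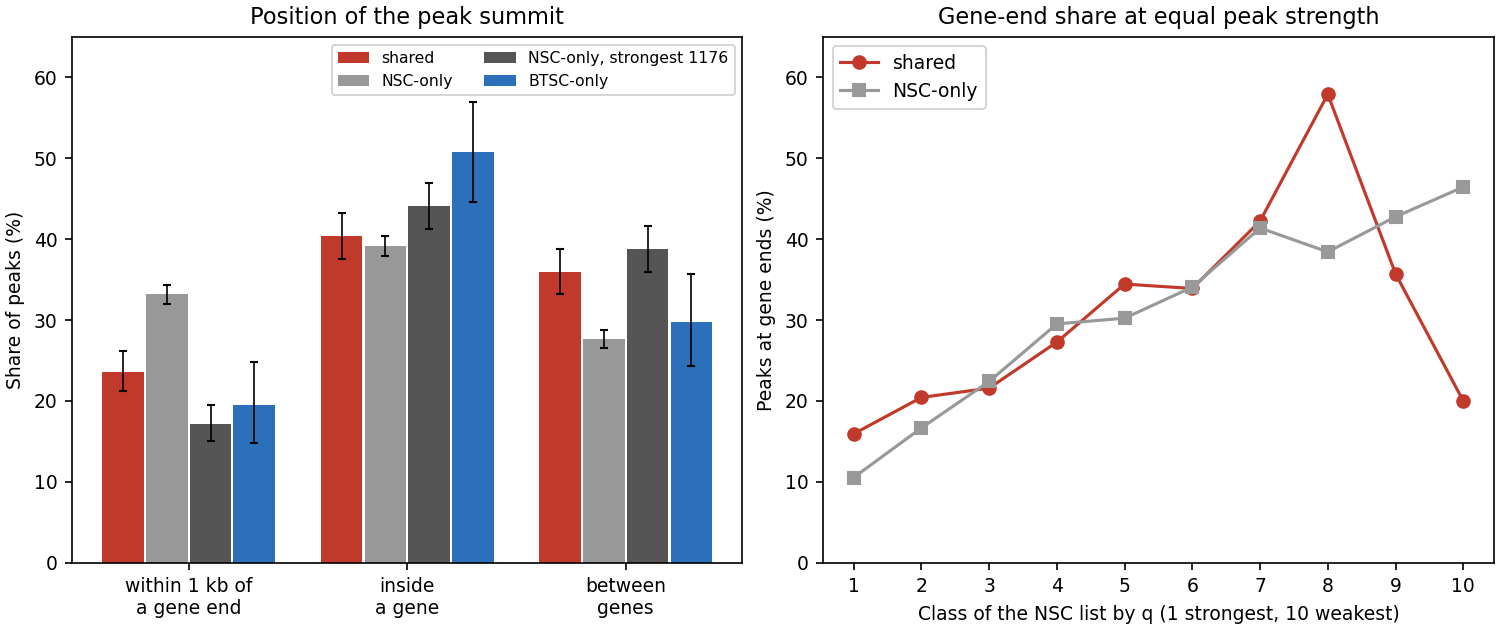
Left, the share of peaks (%) whose summit lay within 1 kb of a gene end, inside a gene or between genes, with exact 95% counting intervals, for shared sites, NSC-only peaks, the 1176 strongest NSC-only peaks and BTSC-only peaks. Right, the gene-end share (%) in 10 classes of the NSC list by q; it rises from 15.9% and 10.5% in the strongest class for shared and NSC-only peaks, and the lines cross, with 15 shared sites in the weakest class.

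The shared sites between genes lay a median of 42736.5 bp from the nearest gene end, against 40332.5 bp for NSC-only peaks and 50628.5 bp for the 1176 strongest NSC-only peaks between genes. More than 100 kb from any protein-coding gene stood 120 shared sites (10.2%, 8.53 to 12.1), 7.498% (6.86 to 8.18) of the NSC-only peaks and 11.5% (9.71 to 13.4) of the 1176 strongest NSC-only peaks. Other gene models were not counted here, and some of these sites may lie close to one. Annotated start sites, which carry a strand, were within 1 kb of 286 summits (24.3%, 21.9 to 26.9). No start sites were available for chromosome 18, and its 33 shared sites stay in the total of 1176. Of these 286 summits, 185 (64.7%, 58.8 to 70.2) were within 250 bp of the start, 130 lay before it, and 64 (22.4%, 17.7 to 27.7) had starts on both strands within 1 kb. NSC-only peaks near starts had 57.9% (55.8 to 60.03) within 250 bp and 17.4% (15.8 to 19.1) with starts on both strands. The 1176 strongest NSC-only peaks had 210 summits within 1 kb of a start. Of these, 131 (62.4%, 55.5 to 69.0) were within 250 bp, 100 lay before the start (47.6%, against 45.5% of shared) and 33 (15.7%, 11.1 to 21.4) had starts on both strands. For all 3 measures the intervals of the shared sites overlap those of the strongest NSC-only peaks.

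Promoter windows were searched for 15 motifs on both strands, from 250 bases before to 50 bases after each start. A shared summit fell in 148 windows of 139 genes, and these came from 130 sites, because divergent or alternative starts share a site. The TLX hexamer AAGTCA was in 35 of 148 windows (23.6%, 17.1 to 31.3), in 121 of 842 windows with an NSC-only summit (14.4%, 12.1 to 16.9) and in 15.1% of all 32851 windows. With the summits of the 1174 BTSC peaks that overlap an NSC peak, the share was 18.7% (12.8 to 25.8), an interval that includes 15.1%. Counted once per site at the NSC summits, 29 of the 130 had a match (22.3%, 15.5 to 30.4), against 105 of 714 NSC-only sites (14.7%, 12.2 to 17.5), and these intervals overlap. AAGTCAA, which contains AAGTCA, was in 11 of 148 windows (7.43%), in 2.49% of NSC-only windows and in 3.10% of all windows. These 11 windows came from 7 sites (5.38%, 2.19 to 10.8), since 4 are alternative starts of Gm20083 and Tnfaip1 and Ift20 share a match. Of NSC-only sites 2.80% (1.72 to 4.29) had AAGTCAA. Among the 65 sites with the higher NSC fold AAGTCA was found at 19 (29.2%, 18.6 to 41.8) and AAGTCAA at 7. Among the 65 of lower fold AAGTCA was found at 10 (15.4%, 7.63 to 26.5) and AAGTCAA at 0, which allows up to 5.52%, and the AAGTCA intervals overlap. The middle of AAGTCA lay a median of 64.5 bp from the shared summit and 78.5 bp from the NSC-only summit. Median GC content was 61.0% in windows at shared summits, 63.3% at NSC-only summits and 52.7% over all windows; its part in the counts was not tested.

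The ETS motif CCGGAAG was in 36 of 148 windows (24.3%) at shared summits, in 26.4% of NSC-only windows and in 8.86% of all windows. The GC box GGGCGG was in 58.8%, 61.8% and 35.7%. AGGTCA, the hexamer of many other nuclear receptors, was in 11.5%, 11.3% and 16.3%. The SOX motif ACAAAG was in 20.3% (14.1 to 27.7), 13.5% (11.3 to 16.04) and 18.7%. The longer SOX form ACAATGG was in 4.05% (1.502 to 8.61), 1.90% (1.09 to 3.07) and 3.66%, and counted by site at 3 of 130 shared and 14 of 714 NSC-only sites. Between the 65 sites of higher and the 65 of lower fold, AGGTCA was split 12 to 3, the AP-1 motif TGANTCA 7 to 1, ACAAAG 14 to 13 and ETS 15 to 16, so AAGTCA was not the only motif with more matches at the higher folds. A match describes these letters only, and windows that overlap share sequence. Further matches stood close to the summit of the shared site at Ist1, Znhit1 and Plod3, 4.5, 9.5 and 9.5 bp away, and Znhit1 and Plod3 share a divergent promoter.

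Nearly all shared sites carried H3K27ac. A region of H3K27ac was called in both cultures at 1040 of 1176 sites (88.4%, 86.5 to 90.2), against a background of 85.8% over all NSC peaks. It was called in NSC alone at 9 (0.765%, 0.351 to 1.45; background 5.75%), in BTSC alone at 62 (5.27%, 4.07 to 6.71; background 2.29%) and in neither at 65 (5.53%, 4.29 to 6.99; background 6.13%). Counted by culture, 1049 sites (89.2%, 87.3 to 90.9; background 91.6%) met H3K27ac of NSC and 1102 (93.7%, 92.2 to 95.03; background 88.1%) met H3K27ac of BTSC. NSC-only peaks met H3K27ac of BTSC at 87.1% (86.2 to 87.9), 6.63 percentage points less often. Over 10 classes of q the shared sites were higher in 10 of 10, and NSC-only peaks weighted to the same mix reached 82.7%. These classes order peaks by q in NSC only. BTSC-only peaks met H3K27ac of BTSC at 91.2% (87.1 to 94.4), an interval that overlaps that of the shared sites. They had it in BTSC alone at 16.8% (12.5 to 21.9). Sites with H3K27ac of neither culture were a smaller share of shared than of NSC-only peaks in 10 of 10 classes. In the strongest class by q the shares were 9.70% and 11.5%. Classes 8, 9 and 10, the weakest, held 38, 28 and 15 shared sites, 0% of them in this group. Over all classes 6.24% of NSC-only peaks (5.65 to 6.87) had H3K27ac of neither, and this interval overlaps that of the shared sites. For H3K27ac of NSC the difference from NSC-only peaks was -2.82 percentage points without and 1.10 with the weighting by q, higher in 6 classes and lower in 4. Without chromosomes 1 and 6 the 4 shares were 88.1%, 0.770%, 5.28% and 5.83%. H3K27ac came from cells without the transgene, so these values do not describe the mark in the cells in which TLX was precipitated.

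**Figure D3:**
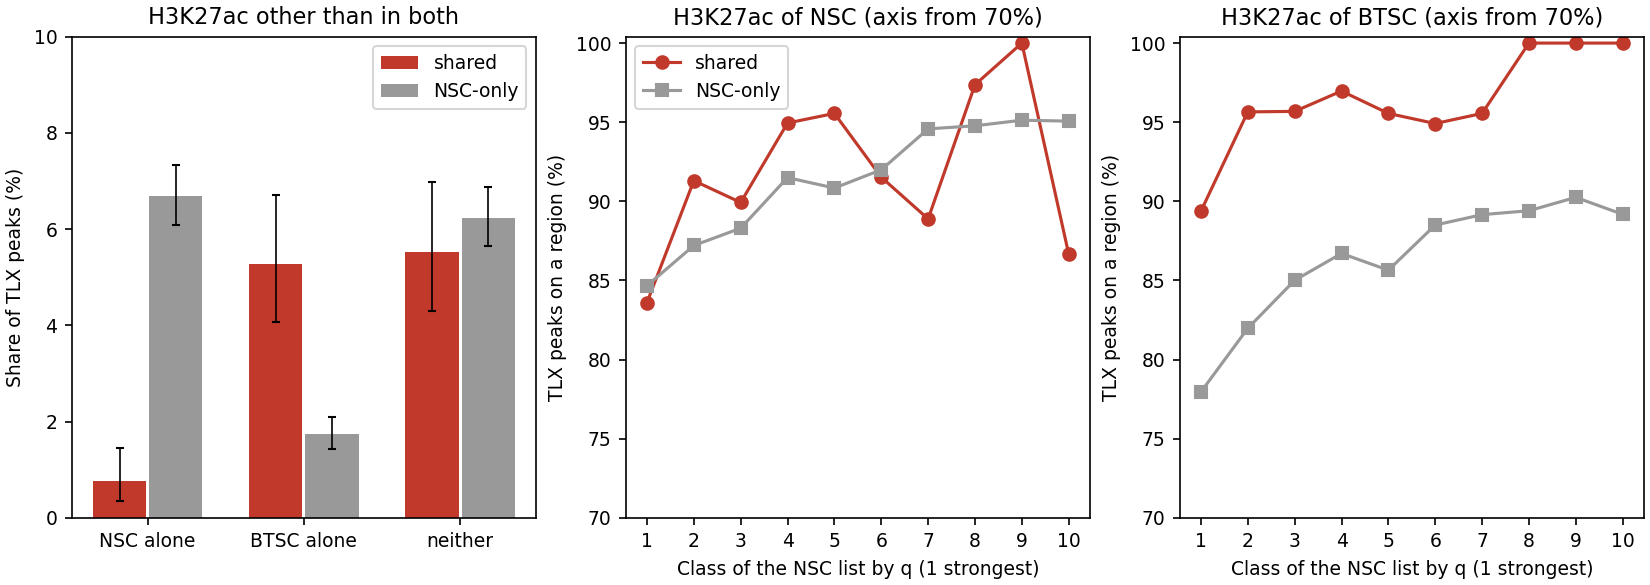
Left, the share of TLX peaks (%) with H3K27ac in NSC alone, in BTSC alone or in neither, with exact 95% counting intervals; NSC alone was 0.765% of shared and 6.69% of NSC-only peaks. Middle and right, the share (%) on an H3K27ac region of NSC and of BTSC in 10 classes of the NSC list by q, on axes from 70%; for BTSC the shared sites lie above the NSC-only peaks in all 10 classes.

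H3K27ac followed gene position in shared and NSC-only peaks alike. At gene ends, 276 of 278 shared sites (99.3%, 97.4 to 99.9) had it in both cultures, inside genes 416 of 475 (87.6%, 84.3 to 90.4) and between genes 348 of 423 (82.3%, 78.3 to 85.8). Of the NSC-only peaks, 97.0% (96.2 to 97.7), 83.7% (82.2 to 85.1) and 73.7% (71.6 to 75.8) had it at the same positions. The 62 sites with H3K27ac in BTSC alone included a site 229 bp from an end of Bag1, a co-chaperone gene, with folds of 17.7 in NSC and 14.1 in BTSC, on a BTSC region of 1491 bp. Inside Plxna2, a semaphorin receptor gene, such a site had folds of 12.4 and 9.51. Inside Nhs, on chromosome X, the folds were 17.98 and 8.93. Other sites of this class were inside Wipf2, Dop1b and Ralgapa2 and near Slc24a2, Rps6kc1, Macrod2 and Dnah14. The 9 sites with H3K27ac in NSC alone included a site 7377 bp from Hopx, a homeodomain gene expressed in quiescent stem cells, with folds of 11.5 and 5.32, and a site 257559 bp from Fzd1, a Wnt receptor gene. The others of these 9 lay inside Pde1a, 6289 to 24351 bp from Dnah7a, Cabcoco1, Rgs8 and Tmem220, and 137512 bp from Tnrc6c. The last was 73640 bp from a gene model without a name.

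Strong TLX calls also stood where no H3K27ac was called. The 65 sites with H3K27ac in neither culture had median folds of 8.41 in NSC and 6.14 in BTSC, against 6.69 and 5.26 at the 1040 sites with it in both. The highest was inside Thsd4, an extracellular matrix gene, with folds of 33.9 and 25.2. Sites inside Ctnna2, which encodes a catenin of neurons, had folds of 18.7 and 5.49, inside Gli3, the Hedgehog pathway repressor, 14.6 and 7.10, and inside Maml3, a Notch coactivator gene, 15.1 and 8.93. Auts2, a gene of cortical development, held a site with 13.8 and 10.1. A site 16933 bp from Mturn had 22.8 and 5.72. The low-fold sites whose nearest genes are Lrrc4c and Alkbh8, both distant, were in this class as well.

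The acetylated regions under shared sites were wide. Of the 31266 NSC regions, 1019 (3.26%) held a shared site, and of the 31597 BTSC regions 1061 (3.36%). In NSC their median width was 2992 bp, that of regions without a shared site 1545 bp and that of regions with NSC-only TLX alone 2446 bp. The BTSC values were 3325, 1547 and 2359 bp. Counted per TLX peak, the median width of the NSC region was 3107 bp for shared sites and 2890.5 bp for the 1176 strongest NSC-only peaks. For the BTSC region it was 3446.5 and 2529.5 bp, and 3034 bp for BTSC-only peaks. Of the widest 1% of regions, 94 of 313 in NSC (30.03%, 25.004 to 35.4) and 101 of 316 in BTSC (32.0%, 26.9 to 37.4) held a shared site. In the narrowest of 10 width classes 0.256% in NSC and 0.475% in BTSC did. Wider regions cover more sequence, and the part of width in these shares was not tested. Several shared sites stood on 28 NSC and 37 BTSC regions. Inside Xylt1, a gene of proteoglycan synthesis, the BTSC region was 112626 bp wide with 3 shared sites, and the NSC region was 48542 bp wide with 2. The region beside Rhbg, which contains Mir9-1, held 3 in either culture. Regions with 2 shared sites in both cultures included those at Notch1, Plpp3, Myo10, Kcnj10 and Nfib. The regions that contain Mir9-2 and Mir9-3 also held 2 each in both cultures, and the region at Bahcc1 held 3.

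A minority of shared sites had a shared neighbour within 50 kb. The nearest other shared site lay a median of 321350 bp away, against 360594 bp within the 1176 strongest NSC-only peaks. With neighbours joined over gaps of up to 50 kb, the 1176 sites formed 1045 chains, of which 105 had at least 2 sites. These held 236 sites (20.1%, 17.8 to 22.5), and the largest had 5. The same number of the strongest NSC-only peaks had 179 in chains (15.2%, 13.2 to 17.4). Without chromosomes 1 and 6 the shares were 17.9% (15.5 to 20.6) and 13.8% (11.7 to 16.1). At a gap of 10 kb, with all chromosomes, they were 6.29% (4.97 to 7.84) and 6.55% (5.201 to 8.12), and at 100 kb 28.4% (25.8 to 31.1) and 23.4% (21.0 to 25.9). The order at 50 kb was thus also seen at 100 kb but not at 10 kb. Only at 50 kb with all chromosomes did the intervals not overlap.

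A chain of 5 sites spanned Olig1 and Olig2, the paired bHLH genes of the oligodendrocyte lineage and of dividing progenitors, on chromosome 16 from 91191305 to 91306371. From the Olig2 side onwards the NSC folds were 8.80, 5.74, 12.2, 13.2 and 8.99, and the BTSC folds 6.87, 4.58, 10.5, 6.18 and 7.32. The second site lay 904 bp from an end of Olig2, the third lay 6956 bp from Olig1, and the others more than 32 kb from either gene. Another 4 NSC-only peaks stood in this chain and no BTSC-only peak. The chain of 4 sites between Polg and Rhcg lay 13482 to 67070 bp from Mir9-3. Its NSC folds were 9.18, 6.12, 11.1 and 17.0 and its BTSC folds 4.12, 5.26, 7.78 and 13.3. Of the 4 sites at Bahcc1 and Slc38a10, with NSC folds of 6.31, 16.6, 5.93 and 6.12, the first 3 lay between the genes and the last inside Bahcc1. All sites of these 3 chains carried H3K27ac in both cultures.

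**Figure D4:**
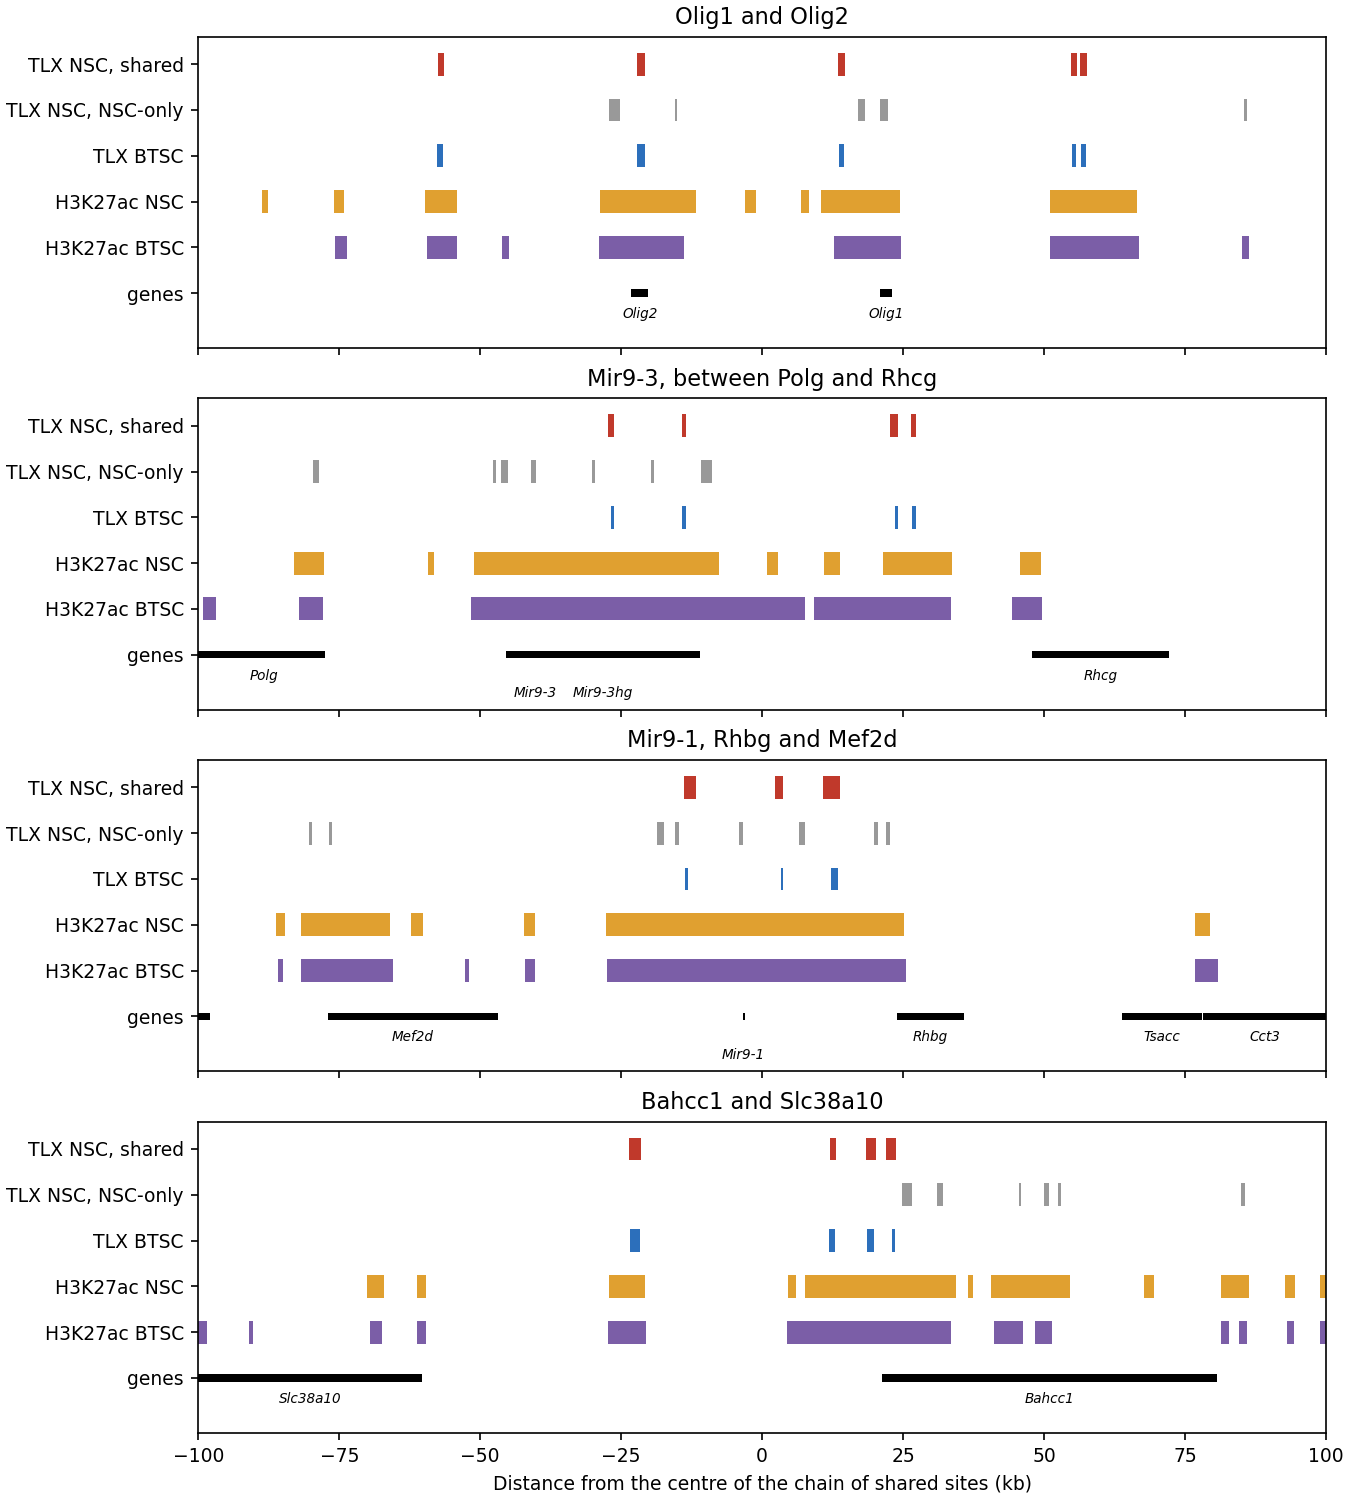
Maps of 4 chains of shared sites, by distance in kb from the centre of the chain (100 kb either side), with 1 row each for shared TLX sites, NSC-only TLX peaks, BTSC TLX peaks, H3K27ac regions of NSC and BTSC, and genes. All shared sites stand on H3K27ac of both cultures, as at the 5 sites around Olig1 and Olig2 and the 4 within 75 kb of Mir9-3. The 3 near Mir9-1 stand on the same region.

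Chains of 3 lay at Notch1, at Ntrk2, which encodes the BDNF receptor, and at Fgfr3, Tacc3 and Slbp, with Fgfr3 a receptor gene of neural progenitors. The Fgfr3 chain had NSC folds of 4.78, 6.12 and 8.22 and BTSC folds of 4.35, 5.72 and 5.72. Further chains of 3 were inside Xylt1, across Vezf1 and Cuedc1, between Adamts4 and Dedd, and near Itm2c and Gpr55. Others lay far from their nearest protein-coding gene, 54141 to 120530 bp from Rps24 and 101792 to 126525 bp from Zfp36l2. Counted by gene, with the gene body and 10 kb around it, Gse1, Ptprg, Tns1 and Nckap5 had 4 shared sites each. Msi2, which encodes the RNA-binding progenitor marker Musashi-2, had 3, as did Bahcc1, Nav2, Snd1, Xylt1, Ntrk2, Nfib, Tnr and Ildr2. Most of these genes are long, such as Nckap5 at 917161 bp, while Bahcc1 at 59428 bp and Ildr2 at 62773 bp are shorter.

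A shared site lay in or within 10 kb of 943 of 21900 protein-coding genes (4.31%), 863 of them with 1 site. Such genes had a median length of 44884 bp against 17146 bp over all protein-coding genes, and gene length was not accounted for, so counts per list are descriptions to be read beside 4.31%. In 64 genes each list had a peak but none was shared. For 350 sites no protein-coding gene was within 10 kb. The lists below hold 60 genes with 74 shared sites, and 71 of those sites carried H3K27ac in both cultures, which 88.4% of all shared sites and 85.8% of all NSC peaks did. An NSC TLX peak, shared or not, lay in or within 10 kb of 24.8% of the protein-coding genes. H3K27ac was called within 1 kb of a gene end at 52.2% of them in NSC and at 51.7% in BTSC, and the counts of list genes with either are to be read beside these shares.

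**Figure D5:**
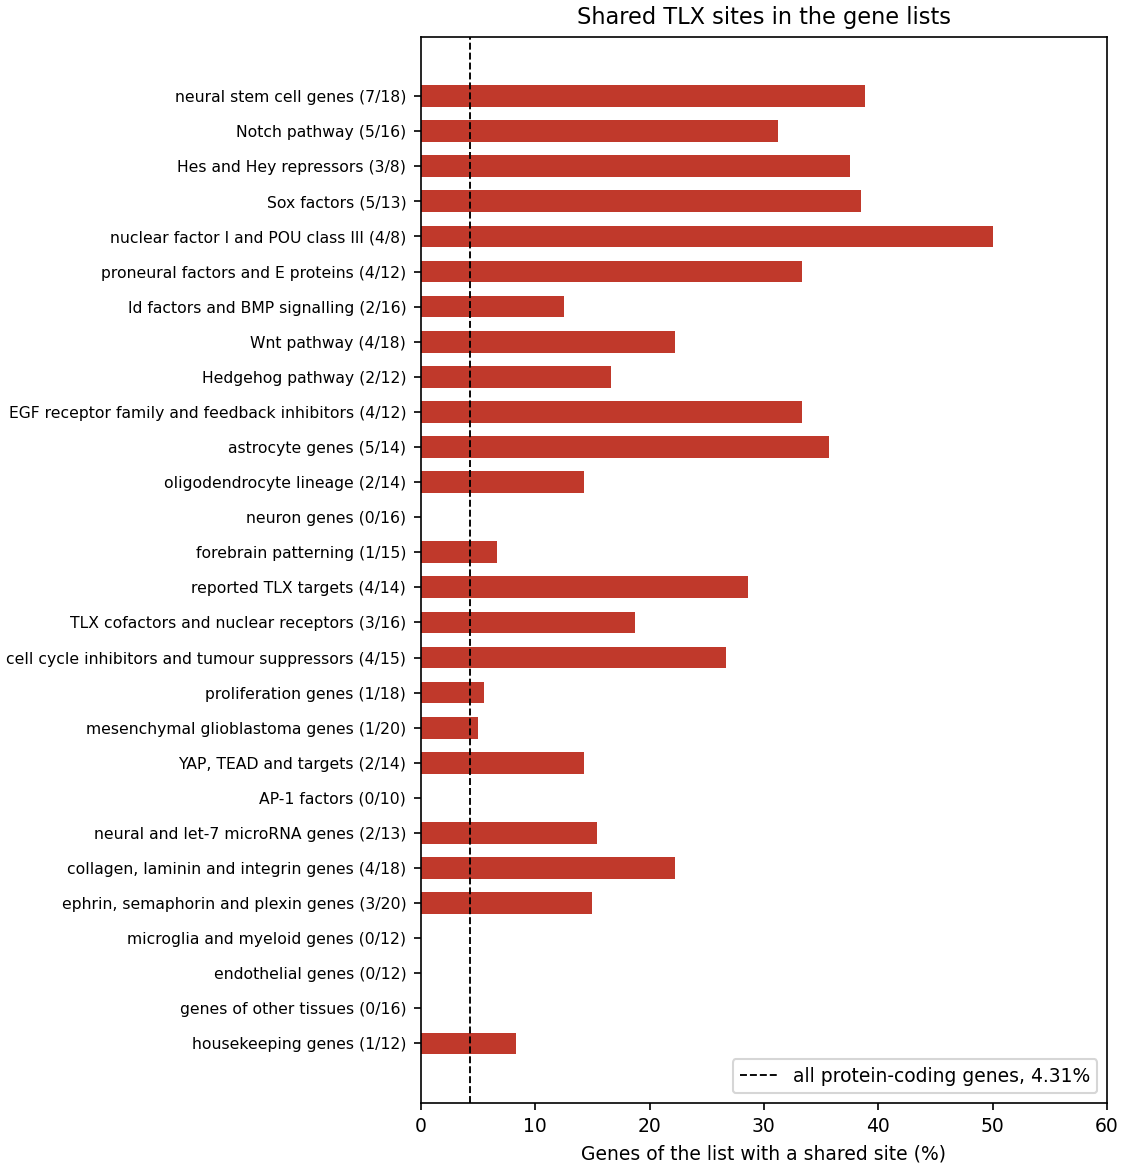
Share of the genes of each list (%) with a shared site in the gene or within 10 kb, with the counts in parentheses; the dashed line marks 4.31% of all protein-coding genes. The lists of nuclear factor I and POU class III genes (4 of 8), neural stem cell genes (7 of 18) and Sox factors (5 of 13) stand highest, and 5 lists, among them neuron genes (0 of 16), are at 0; gene length was not accounted for.

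Among 18 genes of neural stem cells, 7 had a shared site. At Hes1, the Notch-induced repressor, the site lay 1206 bp from the gene end with folds of 17.98 in NSC and 8.70 in BTSC. Egfr, the EGF receptor gene, had 9.37 and 4.53 at a site 79863 bp inside the gene. Slc1a3, the glutamate transporter gene of radial glia and astrocytes, had 2 sites with NSC folds of 8.99 and 4.84. Sox2, the pluripotency and stem cell factor, had a weaker site 693 bp before its start, with folds of 4.40 and 4.12, and Sox1 one with 2.86 and 5.04. Of the sites named here Hes1 had the highest and Sox1 the lowest NSC fold.

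The Notch pathway keeps progenitors undifferentiated, and 5 of its 16 genes had a shared site. Ligand and modifier genes were Jag1, with sites at 402 and 6354 bp from its start and NSC folds of 4.97 and 7.08, and Lfng, which encodes a glycosyltransferase that modifies Notch, with 5.16 and 6.31. Of the receptors, Notch1 had 2 sites within 10 kb of the gene with folds of 5.74 and 4.08 in NSC and 5.49 and 4.35 in BTSC, and Notch2 had 5.93 and 8.80 in NSC and 4.12 and 5.26 in BTSC. The coactivator gene Maml2 had 5.81 and 4.18. Of the 8 Hes and Hey repressors, the targets of the pathway, Hes1, Hes3 and Hes6 had a shared site. Hes3 had folds of 16.1 and 9.39 and Hes6 of 6.44 and 6.34. In NSC the folds at Hes1 and Hes3 were thus above those at every site of the receptors and ligands with a shared site. The Hes6 fold of 6.44 was below the highest folds at Notch2 and Jag1, 8.80 and 7.08.

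Among transcription factors of progenitors, Nfia, Nfib and Nfix, nuclear factor I genes of gliogenesis, and Pou3f3 had a shared site, 4 of the 8 genes of that list, and 8 of the 8 had a TLX peak in NSC, against 24.8% of all protein-coding genes. Nfia had sites with NSC folds of 11.1 and 5.16, Nfib 3 with 5.35, 7.44 and 6.12, Nfix 1 with 6.69, and Pou3f3 1 with 8.03. In BTSC the 3 Nfib folds were 5.26, 6.80 and 7.10. Of 13 Sox genes, Sox1, Sox2, Sox6, Sox13 and Sox21 had a shared site. Sox21, which promotes exit from the progenitor state, had NSC folds of 9.18 and 5.74, and Sox6, a regulator of oligodendrocyte precursors, 8.80. Of 12 proneural genes and E proteins 4 had one, among them Olig1, Olig2 and Tcf3, the last with folds of 4.02 and 4.12.

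Astrocyte genes were touched in 5 of 14 cases. Sparcl1, a secreted matrix protein gene, had folds of 23.5 in NSC and 19.7 in BTSC, and Aldh1l1, a folate enzyme gene, had 15.2 and 9.74 at 9237 bp from the gene. At Gfap, the intermediate filament gene that TLX is reported to repress, the site lay 1418 bp before the start with 7.08 and 7.32. Glul, the glutamine synthetase gene, had 3.82 and 3.89. Of 14 genes of the oligodendrocyte lineage Olig1 and Olig2 had a shared site. Of 16 neuron genes 0 had one, which allows up to 20.6%, beside 4.31% of all protein-coding genes. A TLX peak in NSC was called at 4 of the 16, beside 24.8%. At gene ends, H3K27ac of NSC was called at 8 of the 16 neuron genes and H3K27ac of BTSC at 4, against 52.2% and 51.7% of all protein-coding genes.

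Growth factor signalling held 4 of 12 genes of the EGF receptor family and its feedback inhibitors. Besides Egfr these were 3 inhibitors, Lrig1, which lowers receptor levels, with NSC folds of 10.1 and 6.69, and Spred1 and Spred2, which restrain Ras signalling, with 9.94 and 11.9. Their BTSC folds were 5.95 and 4.58, 5.95 and 6.64. The Lrig1 sites stood on H3K27ac regions of 59694 and 28018 bp in NSC. In the Wnt pathway 4 of 18 genes had a shared site, among them Tcf7l1, a repressive factor of the pathway, with NSC folds of 16.3 and 5.16, Axin2, its feedback inhibitor, with 7.08, and Wnt5a, a ligand gene, with 4.97. Of 12 Hedgehog genes Boc, a coreceptor gene, had folds of 4.02 and 3.66 and Gli3 14.6 and 7.10. Of 16 genes of Id factors and BMP signalling, Id3 had 5.93 and 4.58 and Smad3 4.78 and 6.18.

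Reported targets of TLX made up a list of 14 genes, of which 11 had a TLX peak in NSC and 4 a shared site, among them Gfap, Mir9-1 and Mir9-2. This list was drawn from earlier studies of TLX. Among 16 cofactors and nuclear receptors 3 had a shared site. These were the deacetylase gene Hdac1 with 8.80 and 4.35, the corepressor gene Rcor1 with 6.69 and 4.35, and Rxra, a nuclear receptor gene, with 5.35 and 5.95. Among 15 cell cycle inhibitors and tumour suppressors there were 4, among them Cdkn1b with 10.7 and 5.04, Tsc1 with 8.61 and 5.95, and Nf1 with 4.78 and 4.12. The Tsc1 and Nf1 sites lay 173 and 306 bp from a gene end. Proliferation genes had 1 of 18, Aurkb, with 6.502 and 4.58.

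Matrix and guidance genes had shared sites in 4 of 18 and 3 of 20 cases. Thsd4 and Itgb5 were described above. Col5a3, a collagen gene, had folds of 11.3 and 9.61 and Itgb8, an integrin gene, 4.98 and 4.82. Plxna2 had 2 sites, Sema3a, a repulsive ligand gene, 1 with 5.74 and 5.72, and Nrp2, a semaphorin coreceptor gene, 1 with 4.21 and 4.12. Of 14 genes of YAP, TEAD and their targets, Yap1 had 7.08 and 4.58 at 63 bp from a gene end and Tead1 5.16 and 5.26. Mesenchymal glioblastoma genes had 1 of 20, Cebpd, with 5.16 and 4.12. AP-1 factors had 0 of 10, which allows up to 30.8%, beside 4.31% of all protein-coding genes. Of these factors 4 had a TLX peak in NSC, beside 24.8%, and 9 carried H3K27ac at a gene end in either culture.

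Genes of other cell types had no shared site, with 0 of 12 for microglia and myeloid cells, 0 of 12 for endothelium and 0 of 16 for other tissues. These counts allow up to 26.5%, 26.5% and 20.6%, which include the 4.31% of all protein-coding genes. H3K27ac at the gene ends of these lists was called at 1 of 12, 1 of 12 and 2 of 16 in NSC and at 1, 0 and 2 in BTSC. For neural stem cell genes it was called at 15 of 18 in NSC and 14 of 18 in BTSC, and for housekeeping genes at 11 of 12 in either, beside the shares of 52.2% and 51.7% over all protein-coding genes. The lists carry no read numbers and the depth is unknown, so a site outside the shared set means that no peak was called in the other library.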

How the data were processed

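Chromatin immunoprecipitation with sequencing was done for TLX and H3K27ac in NSC and BTSC, 1 library each. Per the labels' protocols, cells were fixed in 1% formaldehyde for 10 min, quenched with 125 mM glycine and sheared to about 200 bp; 2 ug of antibody and paired reads of 50 bp were used. The submitters' processing notes name bcl2fastq 2.17.1.14, the aligner Bowtie, ChIPseeker and build mm10. The peak caller is not given in the sources used here. Peak lists were deposited by the authors, 1 per library, with coordinates, a fold enrichment (a linear ratio), −log10 p and q values and a score. Multiplying the deposited −log10 q by 10 and dropping decimals gave the score. Folds depend on each library's background, so they were printed side by side and ranked only within a list. Counts of sites with the higher fold in either list compare these printed values and do not measure stronger binding. Depth is unknown.

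Overlap needed 1 bp. Gene position used the summit and the outer ends of 21900 RefSeq protein-coding genes (GRCm38.p6, the assembly of mm10); that table has no strand or exons, so exons and untranslated regions were not distinguished. Start sites, strands and promoter letters came from RefSeq promoter windows, which cover 17492 of these genes. They include none on chromosome 18, so sites there could not enter the start-site or motif counts. No genome was used, so motifs were searched in promoters only. H3K27ac was called at a site by overlap of 1 bp. Shares have exact Clopper-Pearson 95% intervals, which cover counting error only. Python 3.11.15 with numpy 2.4.6, scipy 1.17.1, pandas 2.3.3 and matplotlib 3.10.9 was used, and overlap, chain and position steps were tested on simulated data.

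The members, the 28 gene lists (402 of 403 entries matched) and the 15 motifs were chosen with earlier results of these data known. The rule names sites 11 to 30 by rank sum, the longest chains, the genes with most sites, the largest rank shifts, the strongest sites per H3K27ac class, the edges of the overlap rule, the widest H3K27ac regions, and list genes with a shared site; unnamed gene models were passed over. The leading 10 sites are given where a value was added. Ctnna2, Maml3, Auts2 and other H3K27ac examples follow that rule, while the motif examples were chosen after their values were seen. A few sites under this rule are not reported here. Alternatives are given in the closing section.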

Additional observations from a re-analysis of the deposited data

How the results depend on the processing

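Over 16 alternatives, 117 of 148 recomputed values stayed within the interval of the main value or within 1.5 times the main count. A reciprocal overlap of 50% gave a shared share of 12.9%, H3K27ac of both cultures 86.4%, chained sites 17.0% and a difference in NSC H3K27ac from NSC-only peaks of -4.85 percentage points. Summits within 200 bp gave a shared share of 13.3% and chained sites 14.7%, and a −log10 q of at least 5 gave chained sites 17.2%. With the NSC list cut to the length of the BTSC list there were 642 shared sites (44.7%), 17.4% at gene ends, 41.0% between genes, 85.4% with H3K27ac of both, 7.63% with neither, 12.6% in chains, 495 genes and 35 list genes. The gene-end difference then changed sign to 3.72 points, with an approximate interval of -0.17 to 7.60 that includes 0. The BTSC H3K27ac difference was 11.2 (7.64 to 14.8) and the NSC difference -0.0090 (-3.70 to 3.68). Within 10 classes of q the gene-end difference reversed to 2.91 points and the NSC H3K27ac difference to 1.10, and the BTSC difference was 11.04. Over lines of the BTSC list 81.8% were shared. Without chromosomes 1 and 6 the shared share was 14.6% and gene ends 21.1%. A window of 2.5 kb gave 29.8% at gene ends and 35.8% inside. Strict H3K27ac regions (−log10 q of at least 5) gave 82.2% with both and 11.6% with neither. Chains at 10 and 100 kb held 6.29% and 28.4%. Leaving out sites of fold under 2 and counting promoter matches once per site, both chosen after seeing the data, joining peaks within 1 kb, placing the summit inside the H3K27ac region and taking the nearest gene moved no value past these limits. No paired analysis was possible because each group has 1 library; none could be left out. Depth is unknown and limits what absence from a list means.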
